A study of Gallus gallus with 8 samples.

Results

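The genes described here duplicate DNA and separate chromosomes in dividing cells of the chicken trachea. They were chosen by symbol from the deposited gene table: the families MCM, ORC, GINS, POLA and POLE, CENP, CDCA, NCAP, AURK and BUB, the cyclins A, B and E, and ANLN, RACGAP1, TOP2A, MKI67, CDC6, CDC20, CDC45, CDK1, PCNA, PLK1, KIF11 and KIF23. The choice took 76 of the 26296 genes in the table by symbol alone, but it was made with earlier results of these data known. By symbol, 25 of these were classed with DNA replication and 45 with mitosis, and some of them have another role. CDCA4, CDCA7 and CDCA7L in the mitosis class are transcription or chromatin factors, and MCM8, MCM9 and CENPJ are described below. Another 4 are cyclins A and E, which act at the entry to and during DNA synthesis, and 2 match by spelling only. These 2 are AURKAIP1, which encodes a protein of the mitochondrial ribosome, and MCM3AP, which works in export of mRNA from the nucleus.

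Tracheal RNA was taken from chickens (Gallus gallus) at 42 days of age. The exposed birds lived in chambers with a continuous supply of hydrogen sulfide (H2S), an irritant gas of poultry houses, held between 3.5 and 4.5 mg/kg in weeks 0 to 3 and between 19.5 and 20.5 mg/kg in weeks 4 to 6. The control birds (normal tissue in the labels) lived in a separate chamber that received no H2S. For mRNA there was 1 H2S library and 1 control library, both numbered 3, and the labels give neither the breed or sex of the birds nor the number of birds behind a library. The H2S library held 20839798 counts in total and the control library 18875586. With 1 library per group there was no test between conditions and no difference has a replicate check: every ratio compares these 2 libraries. A ratio is the H2S count over the control count after scaling, the range in parentheses after it is its 95% exact interval, and that interval covers counting error only. Pairs of counts are given with the H2S library first, and summed levels are in CPM, counts per 1000000 of the scaled library. Markers of tracheal tissue were present in both libraries, with 198018 and 165713 counts of the cartilage collagen COL2A1 and 2573 and 2772 counts of FOXJ1, the master regulator of motile cilia.

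A cell copies its DNA from origins that are prepared in G1. The origin recognition complex ORC and the loading factor CDC6 place the MCM helicase on DNA, and CDC45 and GINS then join it so that polymerases can start, with PCNA as their sliding clamp. In mitosis, condensin and topoisomerase compact the chromosomes, the CENP proteins build the kinetochore on the centromere, the BUB proteins delay separation until every chromosome is attached, and the anillin and centralspindlin proteins cut the cell apart. In the airway the dividing cells include basal epithelial cells and lymphocytes of local lymphoid tissue. Which cells of the whole trachea carried the RNA of these genes was not tested.

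Mitosis genes were lower in the H2S library as a group, while replication genes were spread around the level of the control library. The 44 measured mitosis genes (at least 20 counts in 1 library) had a median log2 ratio of -0.32, a median ratio of 0.798, and 37 of them were below a ratio of 1. The 25 replication genes had a median log2 ratio of -0.06 and 15 were below 1. Over all 15268 measured genes the median log2 ratio was 0.00 and 50.1% were below 1. The medians of the classes differed by 0.27 on the log2 scale. In whole tissue, fewer dividing cells and less RNA of these genes per cell cannot be told apart.

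Few members passed a 2-fold difference. ORC1 was the 1 member at least 2-fold higher, where 4.71% of all measured genes were, and ANLN, CENPW and CENPM were the 3 members at least 2-fold lower, where 3.71% of all measured genes were. At the smaller step of 1.5-fold, 11 of the 44 mitosis genes (25%) and 0 of the 25 replication genes were lower, beside 9.31% of all measured genes. On the higher side, 3 replication genes and 1 mitosis gene were at least 1.5-fold higher, beside 10.6% of all measured genes. All 25 replication genes lay above the median of the mitosis genes. Of the 44 mitosis genes, 22 lay below the lowest replication gene, MCM10. These counts are not separate results, because the mitosis median of 0.798 lay just below MCM10 at 0.803. Among all measured genes, 19.996% had a ratio below that of MCM10. Both classes overlapped above that point: the highest gene classed with mitosis was CDCA7, a chromatin factor, at 1.82, and 2 replication genes lay above it. Next in the mitosis class was NCAPH2 at 1.41.

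**Figure D1:**
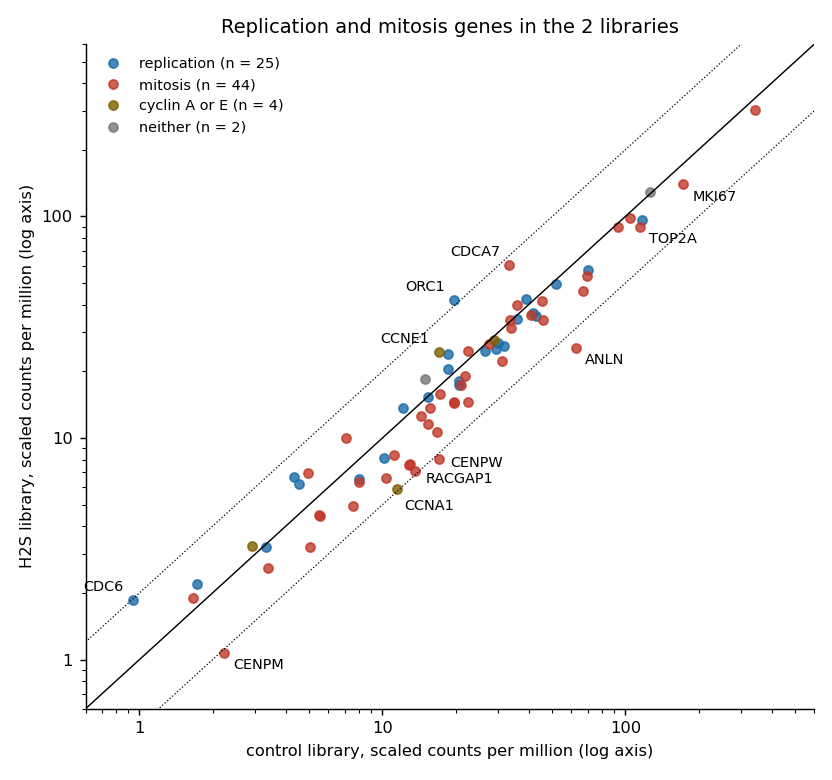
Scaled CPM of the 75 measured members in the control library (x axis, log scale) and the H2S library (y axis, log scale), each point 1 gene and each colour a class, with a solid line at equality and dotted lines at 2-fold. ORC1 lies above the upper dotted line, CENPW, CENPM and ANLN lie below the lower one, and most mitosis genes lie just under the line of equality.

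Among the replication genes, the 3 highest ratios belonged to genes that prepare origins. These 3, the replication genes at least 1.5-fold higher, were 12% of the class, beside 10.6% of all measured genes. ORC1, the largest subunit of the origin recognition complex and, in human cells, one whose level varies through the cell cycle, had 856 and 378 counts, a ratio of 2.12 (1.88 to 2.40). Its ratio was above that of 96.0% of all measured genes and was the highest of the 75 measured members. CDC6, which joins ORC to load the helicase, had 38 and 18 counts, a ratio of 1.98 whose interval ran from 1.10 to 3.69 because the counts were small. ORC6, the smallest ORC subunit, had 136 and 83 counts, a ratio of 1.54 (1.16 to 2.04).

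The other ORC subunits did not share this difference. ORC2 had 315 and 295 counts, a ratio of 1.001 that was 0.967 when the libraries were scaled by total counts. ORC4 was at 1.13 (0.947 to 1.35), and ORC3 and ORC5 were below 1 at 0.832 and 0.861. The 6 subunits of this complex thus ran from 0.832 to 2.12.

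The MCM2 to MCM7 proteins form the ring of the replicative helicase. Its 5 members described here all had ratios below 1, beside 50.1% of all measured genes. MCM6 had 1176 and 1352 counts, a ratio of 0.816 (0.754 to 0.883). MCM3 had 531 and 610 counts and the same rounded ratio of 0.816 (0.725 to 0.919), and MCM2 had 750 and 803 counts, 0.876 (0.792 to 0.969). The intervals of MCM5 at 0.942 (0.831 to 1.07) and MCM4 at 0.969 (0.871 to 1.08) held 1. The summed counts of these 5 genes were 179 CPM for H2S and 206 CPM for control.

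MCM genes outside the ring lay on both sides of 1. MCM8 and MCM9, which form a helicase of recombination repair, were at 1.28 (1.12 to 1.48) and 1.37 (1.03 to 1.82), from 490 against 358 and 127 against 87 counts. MCM10, a scaffold that helps fire the loaded helicase, had 167 and 195 counts, a ratio of 0.803 (0.649 to 0.993), the lowest of the replication genes.

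The factors that turn the loaded helicase into a moving fork ran from 0.816 to 1.28, and the intervals of the catalytic subunits POLA1 and POLE lay below 1. CDC45 had 369 and 396 counts, a ratio of 0.874 (0.756 to 1.01). Of the GINS subunits, GINS1, GINS2 and GINS3 were at 1.28, 0.816 and 1.11, each with an interval that held 1. PCNA, the clamp of the polymerases, had 1017 and 991 counts, a ratio of 0.962 (0.881 to 1.05). POLA1, the catalytic subunit of the polymerase that primes new strands, had 1977 and 2243 counts, a ratio of 0.827 (0.778 to 0.879), and POLE, the catalytic subunit of the leading-strand polymerase, was at 0.836 (0.723 to 0.968). The accessory subunits POLE2, POLE3 and POLE4 were at 0.902, 1.09 and 0.967.

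Cyclins A and E split in the same table. CCNE1, the cyclin that drives entry into DNA synthesis, had 499 and 327 counts, a ratio of 1.43 (1.24 to 1.65), and its relative CCNE2 had 67 and 56 counts, 1.12 (0.775 to 1.63). CCNA2, the cyclin A of dividing body cells, was near 1 with 568 and 555 counts, 0.960 (0.852 to 1.08). CCNA1, which in mice is mainly a cyclin of male germ cells, had 121 and 221 counts, a ratio of 0.513 (0.408 to 0.644), and its ratio was 0.496 when the libraries were scaled by total counts.

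**Figure D2:**
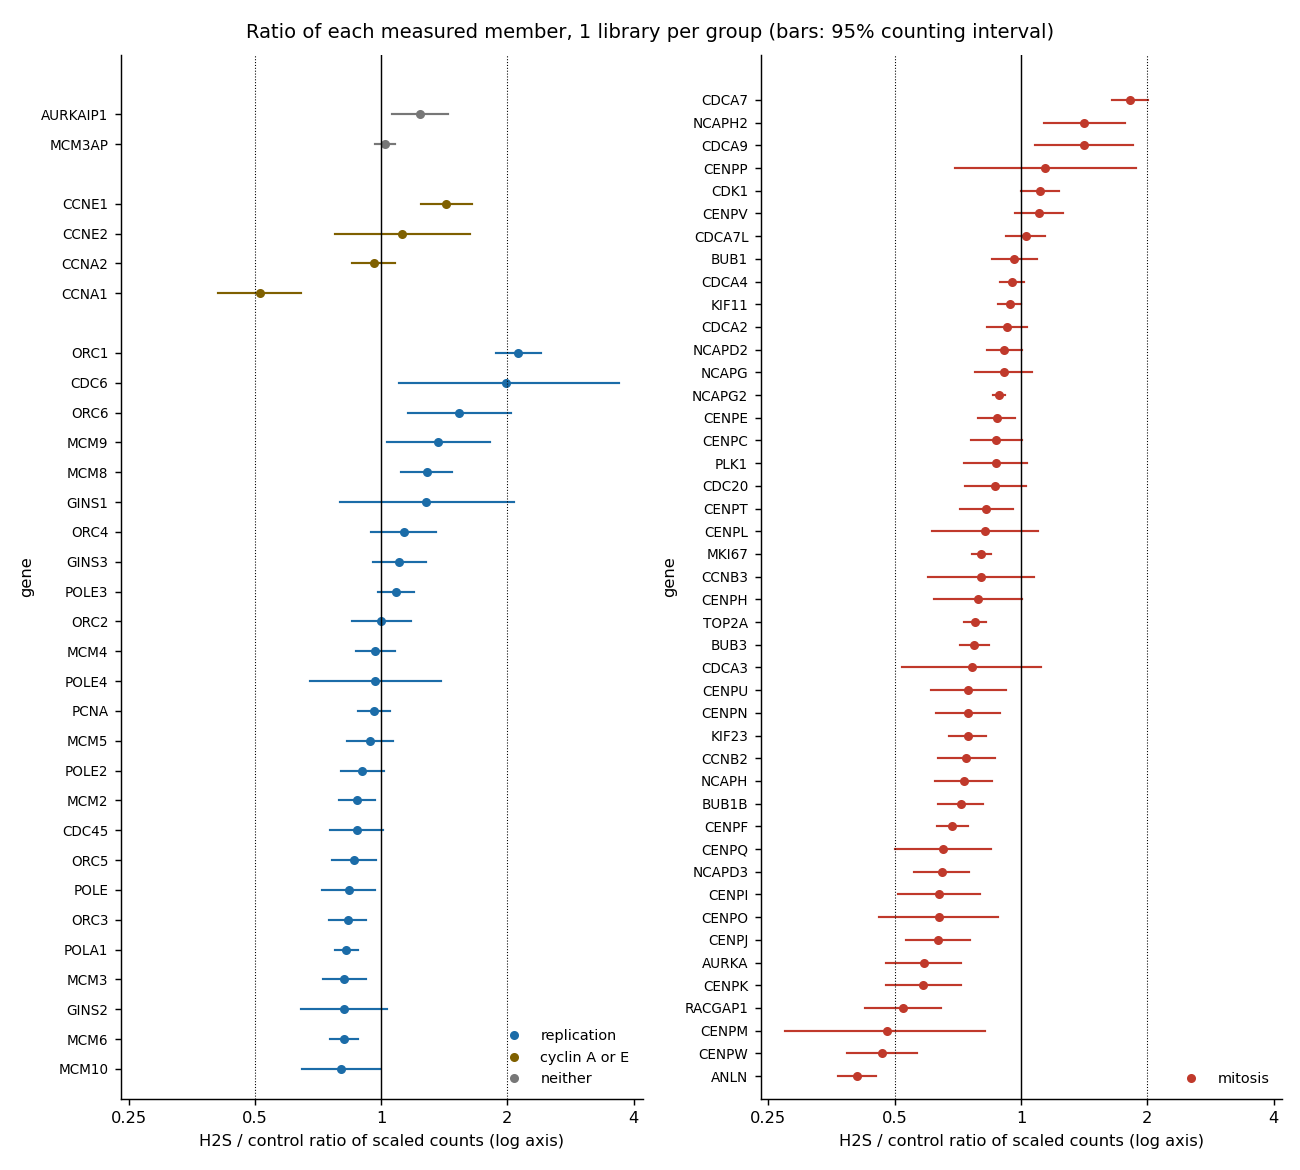
H2S over control ratio of every measured member (x axis, log scale), with bars for the 95% counting interval, replication genes, cyclins and spelling matches on the left and mitosis genes on the right, and dotted lines at 2-fold. Replication genes run from 0.803 to 2.12, and mitosis genes from 0.407 to 1.82 with 37 of 44 below 1.

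In mitosis, the 3 genes of cell cleavage had the lowest median log2 ratio of any role with measured genes, -0.93. ANLN encodes anillin, which organises the contractile ring, and had 523 and 1206 counts, a ratio of 0.407 (0.366 to 0.451). Of all measured genes 2.18% had a lower ratio, and ANLN was the lowest of the 75 measured members. RACGAP1 and KIF23 encode the partners of the centralspindlin complex at the spindle midzone. RACGAP1 had 146 and 261 counts, a ratio of 0.525 (0.425 to 0.645), and KIF23 had 701 and 881 counts, 0.746 (0.675 to 0.825). The summed counts of the 3 genes were 66.9 CPM for H2S and 122 CPM for control.

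Inner kinetochore genes were lower nearly throughout. The constitutive centromere network is built from CENP proteins in small subcomplexes. Of its 13 measured genes 12 were below 1, beside 50.1% of all measured genes, and their median log2 ratio was -0.42. CENPS and CENPX of this network were not analysed here. CENPW, the histone-fold partner of CENPT, had 164 and 329 counts, a ratio of 0.467 (0.385 to 0.566), while CENPT itself was at 0.827 (0.715 to 0.955). In the CENPH, CENPI, CENPK and CENPM subcomplex all 4 genes were below 1. CENPM had only 22 and 43 counts, a ratio of 0.480 (0.273 to 0.820), CENPK had 156 and 250 counts, 0.585 (0.476 to 0.718), and CENPI had 135 and 198 counts, 0.639 (0.510 to 0.800). CENPH was at 0.792 with an interval that held 1 (0.622 to 1.01).

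Of the remaining network genes, CENPO, CENPQ and CENPU were at 0.638, 0.653 and 0.749, and CENPP, with 39 and 32 counts, was the 1 gene above 1 (1.14, 0.698 to 1.88). CENPN and CENPL were at 0.748 and 0.822, and CENPC, which anchors the network to the centromere, was at 0.873 (0.759 to 1.004). CENPA, the histone H3 variant that marks the centromere, had 1 and 4 counts and was the 1 member too low to measure. The summed counts of the 13 network genes were 101 CPM for H2S and 140 CPM for control.

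Outside the inner network, CENPF and CENPE of the outer kinetochore differed in degree. CENPF, a large protein that recruits dynein, had 942 and 1287 counts, a ratio of 0.686 (0.630 to 0.747), and CENPE, the motor that carries chromosomes to the spindle equator, had 734 and 786 counts, 0.876 (0.791 to 0.970). CENPJ, named with this family but a builder of centrioles, was at 0.635 (0.532 to 0.756). CENPV was at 1.10 (0.968 to 1.26).

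The spindle checkpoint genes were also unequal. BUB1B had 457 and 597 counts, a ratio of 0.718 (0.634 to 0.812), and BUB3 had 1101 and 1334 counts, 0.774 (0.714 to 0.839). BUB1, the kinase that helps load BUB1B at the kinetochore, had 544 and 529 counts and was near 1 at 0.964 (0.854 to 1.09). CDC20, the activator of the anaphase-promoting complex that the checkpoint holds back, had 280 and 302 counts, 0.870 (0.736 to 1.03).

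Of the mitotic kinases and B cyclins, only CDK1 was above 1, and its ratio was 1.07 when the libraries were scaled by total counts. AURKA, the kinase of spindle poles, had 155 and 248 counts, a ratio of 0.586 (0.476 to 0.719). PLK1 had 257 and 277 counts, 0.870 (0.731 to 1.03). CDK1, the kinase that triggers mitosis, lay slightly above 1 with 814 and 688 counts, 1.11 (1.001 to 1.23), while its partners CCNB2 and CCNB3 were at 0.741 (0.635 to 0.865) and 0.805 (0.602 to 1.08). The RefSeq gene table lists CCNB2 as another name of its chicken gene CCNB1.

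Most chromosome structure genes lay modestly below 1. MKI67, the proliferation antigen that coats mitotic chromosomes, had 2858 and 3329 counts, a ratio of 0.805 (0.766 to 0.847). TOP2A, the topoisomerase that untangles sister DNA, had 1833 and 2212 counts, 0.777 (0.730 to 0.827). Condensin I genes NCAPD2, NCAPG and NCAPH were at 0.912, 0.910 and 0.730. In condensin II, NCAPD3 was at 0.647 (0.556 to 0.752) and NCAPH2 was above 1 at 1.41 (1.13 to 1.77), from 205 and 136 counts. KIF11, the motor that pushes spindle poles apart, was at 0.939 (0.883 to 0.9996).

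The 4 highest mitosis genes by ratio were CDCA7, NCAPH2, CDCA9 and CENPP. CDCA7, a zinc-finger protein that recruits the HELLS remodeller to DNA and carries the CDCA name, had 1241 and 640 counts, a ratio of 1.82 (1.65 to 2.004). CDCA9, a chicken borealin of the chromosomal passenger complex, had 143 and 95 counts, 1.41 (1.08 to 1.85). The relatives CDCA7L and CDCA4 were at 1.03 and 0.953, and CDCA7L was at 0.991 when the libraries were scaled by total counts. Leaving out CDCA7, CDCA7L and CDCA4 gave a median log2 ratio of -0.36 for the mitosis genes. Each of these lay above the mitosis median, so leaving them out could only lower it. CENPJ, also of another role but low at 0.635, was kept.

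**Figure D3:**
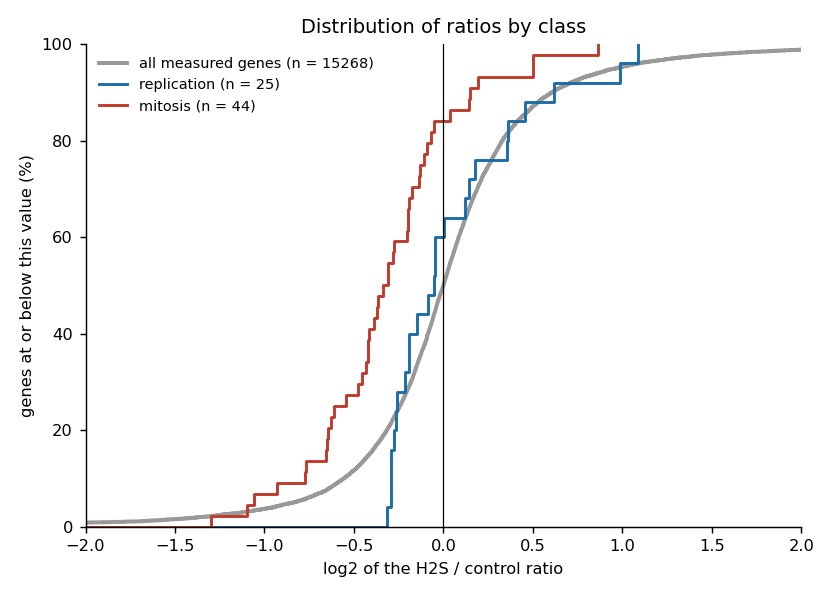
Cumulative share of genes (y axis, percent) at or below each log2 ratio (x axis) for all 15268 measured genes, the 25 replication genes and the 44 mitosis genes. The mitosis curve lies to the left of the curve of all genes over most of its range, with its median at -0.32, and the replication curve has no gene below a ratio of 0.803.

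Pathway genes outside the choice by symbol gave another view, from lists written with earlier results of these data known. Of 67 measured other mitosis genes, 53 (79.1%) were below 1, beside 50.1% of all measured genes, with a median log2 ratio of -0.28. Beyond 2-fold there was 1 gene on the higher side and 4 on the lower side, beside 4.71% and 3.71% of all measured genes. The lowest were CKS2, a small CDK-binding protein with only 8 and 22 counts (0.341, 0.131 to 0.795), and KIFC1, a minus-end spindle motor with 78 and 199 counts (0.368, 0.279 to 0.480). CKS2, 1 of the 4 on the lower side, reached the minimum count for a measured gene in the control library only. That minimum favours a ratio below 1 at such counts, so the direction of CKS2 was partly set by it. ECT2, the exchange factor that RACGAP1 recruits for cleavage, was at 0.573 (0.498 to 0.658), a gene named after its values were seen. Other cleavage genes of this list, also named afterwards, ran from CIT at 0.586, close to ECT2, to KIF14 at 0.899. Between them were KIF20A at 0.625, PRC1 at 0.703, CEP55 at 0.721, KIF20B at 0.739 and KIF4A at 0.826. At the other end, SKA1, which couples kinetochores to microtubules, had 66 and 25 counts, a ratio of 2.48 (1.54 to 4.10), and SGOL2, a protector of centromeric cohesion, was at 1.48 (1.26 to 1.73).

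Other replication genes had a median log2 ratio of -0.14, between those of the replication and the mitosis members. Of 40 measured, 30 (75%) were below 1, beside 50.1% of all measured genes. Beyond 2-fold there was 1 gene on each side, beside 4.71% higher and 3.71% lower of all measured genes. SLBP, the protein that binds the stem-loop of histone mRNA, had 651 and 132 counts, a ratio of 4.63 (3.83 to 5.62). RFC1, the large subunit of the clamp loader, was next at 1.71 (1.62 to 1.81). POLD2, a subunit of the lagging-strand polymerase, had 2 and 22 counts, a ratio of 0.0853 whose interval of 0.00972 to 0.347 reflects the low counts. POLD2 was the 1 gene on the lower side, and it reached the minimum count for a measured gene in the control library only. At such counts that minimum itself favours a ratio below 1, so the direction of this call was partly set by it. CDC7, the kinase that fires origins, had 141 and 229 counts, 0.577 (0.465 to 0.715).

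The upstream regulators showed no common direction. Of 41 measured G1 and cell cycle regulators, 25 (61.0%) were below 1, beside 50.1% of all measured genes, with a median log2 ratio of -0.09. Beyond 2-fold there was 1 gene on the higher side and 0 on the lower side, beside 4.71% and 3.71% of all measured genes. MYBL1, a MYB family factor of germ cells and of germinal centre B cells, had 1423 and 593 counts, a ratio of 2.25 (2.04 to 2.48), and the stress gene GADD45B was at 1.95 (1.66 to 2.29). CDKN3 and the antiproliferative gene BTG2 were lowest at 0.645 (0.464 to 0.891) and 0.678 (0.656 to 0.700). E2F1 and FOXM1, which drive replication and mitosis genes, were at 0.900 (0.723 to 1.12) and 0.897 (0.725 to 1.11). MYBL2, a partner of FOXM1 in mitotic transcription, was at 1.55 (1.40 to 1.71), and the cell cycle inhibitor CDKN1A was at 1.56 (1.35 to 1.80); these 4 genes were named after their values were seen.

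DNA damage checkpoint and recombination genes had a median log2 ratio of -0.07 over 25 genes, with 17 (68%) below 1, beside 50.1% of all measured genes. The nuclease EXO1 was the 1 gene at least 2-fold lower, where 3.71% of all measured genes were, with 77 and 170 counts (0.425, 0.320 to 0.559). BRCA2 and BLM were highest at 1.26 and 1.25. Of the pathway lists, the cohesin genes lay closest to 1, with a median log2 ratio of 0.01. The 11 genes ran from 0.849 (RAD21) to 1.10 (ESCO2), with STAG1 at 0.854 and WAPAL at 1.07 next to those ends.

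**Figure D4:**
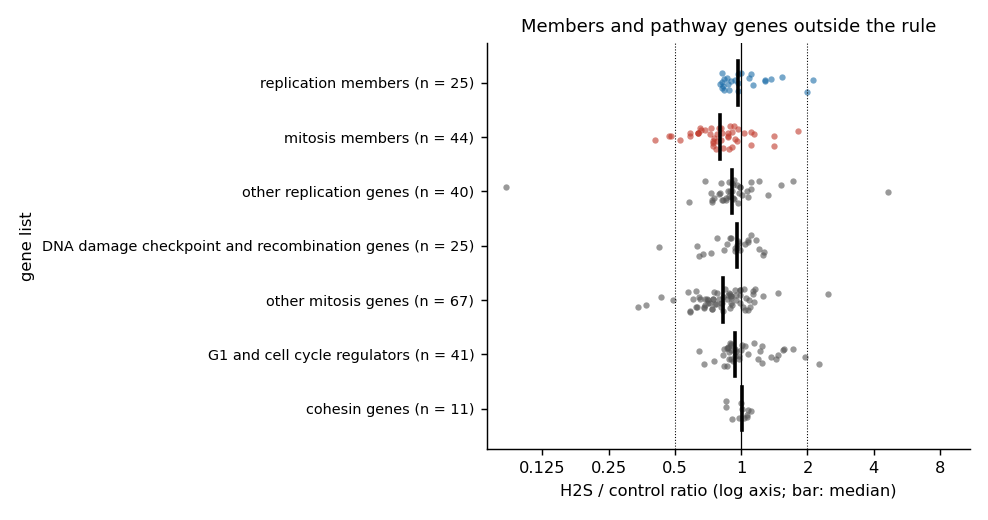
H2S over control ratio (x axis, log scale) of the replication and mitosis members and of pathway genes outside the choice by symbol, each point 1 gene and each bar a list median, with dotted lines at 2-fold. The other mitosis genes center at a log2 ratio of -0.28 and the cohesin genes at 0.01, while SLBP at 4.63 and POLD2 at 0.0853 stand far from the rest of the other replication genes.

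Markers of the cell types of the trachea differed between the libraries as well, and their part in these ratios was not tested. The shares to set beside every marker list are those of all measured genes. Of these, 4.71% were at least 2-fold higher, 3.71% at least 2-fold lower and 50.1% below 1. B cell and germinal centre markers had 4 of 18 genes at least 2-fold higher, 0 lower and a median log2 ratio of 0.24, and their summed level was 592 CPM for H2S and 433 CPM for control. VPREB3 (88 and 10 counts) was at 8.25 (4.28 to 17.8) and CXCR5, the receptor that leads B cells into follicles, at 4.67 (3.39 to 6.56). The lowest B cell markers were CD180 at 0.720 and BLK at 0.784.

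Most markers of the other immune lists were below 1. Plasma cell markers had 4 of 8 genes at least 2-fold lower, led by IGJ at 0.202 and IGLL1 at 0.235. Immunoglobulin genes have similar relatives, so the count of IGLL1 is uncertain. MZB1 and SDC1 were highest at 1.47 and 1.28. The list summed to 1768 CPM for H2S and 6820 CPM for control. Most of that sum came from IGJ (555 and 2749 CPM) and IGLL1 (867 and 3686 CPM). Macrophage and dendritic cell markers had 3 of 11 at least 2-fold lower and summed to 1021 and 1463 CPM, with FLT3 and MARCO lowest at 0.345 and 0.414 and SPI1 and C1QB highest at 1.11 and 0.867. T cell markers had 11 of 13 below 1, none beyond 2-fold, and summed to 175 and 216 CPM, with CD247 and CD8A lowest at 0.617 and 0.636 and CD8B at 1.29.

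In the epithelium, TP63, the transcription factor of basal cells, had 699 and 1339 counts, a ratio of 0.490 (0.446 to 0.537). Of the 10 basal markers 8 were below 1, and they summed to 441 and 573 CPM. ITGB4 was at 0.595, KRT14 at 2.29 and KRT5 at 1.16. Multiciliated and secretory markers summed to 1254 and 1480 CPM, with 8 of 10 below 1, DNAH5 and TEKT1 lowest at 0.701 and 0.709, and SPDEF and ELF3 highest at 1.40 and 1.15.

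Cartilage and contractile muscle markers were higher in the H2S library. All 12 chondrocyte markers were above 1, 2 of them at least 2-fold (MATN3 at 2.63 and CHAD at 2.35), with COL9A1 and COL2A1 lowest at 1.11 and 1.12, and they summed to 26513 and 20575 CPM. Skeletal muscle and satellite cell markers summed to 11140 and 7476 CPM, with ACTA1 and TNNC2 at 1.73 and 1.72 and the myogenic factors MYF5 and MYOD1 at 0.697 and 0.788. Fibroblast markers ran from 0.839 (COL1A1) and 0.849 (LUM) to 1.13 (FAP) and 1.14 (PDGFRB) and summed to 18489 and 19537 CPM. Endothelial markers ran from 0.808 (VWF) and 0.922 (TIE1) to 1.17 (PECAM1) and 1.25 (ESAM) and summed to 1194 and 1278 CPM. Erythroid markers summed to 36.04 and 21.4 CPM, with 1 of 4 genes at least 2-fold higher. HBAA was highest at 2.13 and SLC4A1 next at 1.91, HBAD and TAL1 were lowest at 0.960 and 1.22, and HBE and HBZ had 0 counts in both libraries.

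**Figure D5:**
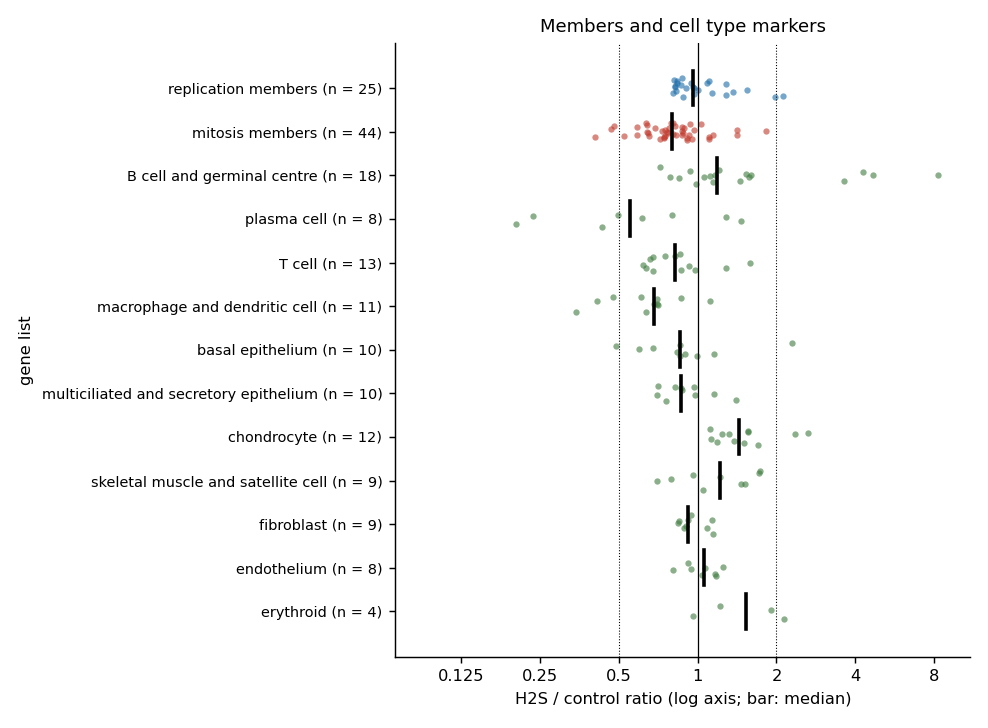
H2S over control ratio (x axis, log scale) of the replication and mitosis members beside markers of cell types in the trachea, each point 1 gene and each bar a list median. B cell markers reach 8.25, plasma cell markers reach down to 0.202, and all 12 chondrocyte markers lie above 1.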

How the data were processed

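The mRNA data were 1 library from H2S-exposed and 1 from control chicken trachea (both numbered 3). The deposited table gives raw counts per gene with a gene type, and its reads were aligned with HISAT2, per the submitters' processing notes. The version, genome build, annotation, counting tool and strandedness are not given in the sources used, so no coordinates are printed, and reads of overlapping or antisense genes may be mixed. Scaling used TMM in edgeR 4.0.16 (R 4.3.3), and ratios and intervals were computed with scipy 1.17.1. Intervals are 95% exact (Clopper-Pearson) intervals of the conditional binomial, checked on simulated counts that held counting error only. The simulated counts had no variation between birds or libraries, so that check says nothing about it. A gene was measured with at least 20 counts in 1 library, and a count of 0 would take a floor of 3 counts. No test was made with 1 library per group.

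Members were matched by the symbols of the deposited table, and 74 of the 76 are also symbols of the RefSeq gene table of assembly GRCg7b (all but CCNB2 and AURKA), used for names only. The members, lists and naming rule were chosen with earlier results of these data known. The rule named members at least 2-fold different, the 4 highest and 4 lowest of each class, MCM2 to MCM7, the cyclins and the main proliferation markers (MCM7 and AURKB were not analysed here), and the 2 highest and 2 lowest genes of each list, of which some are not reported here. Alternatives were other scalings, count minimums, folds, floors and class borders. Small RNA libraries were not used here, and neither were sequences of these genes.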

Additional observations from a re-analysis of the deposited data

How the results depend on the processing

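No paired analysis was possible because each group has 1 mRNA library, and for the same reason no replicate could be left out. The medians of the members, of both classes and of the 5 pathway lists stayed inside the medians of their members' counting intervals under every alternative that applied. Those bounds come from single genes and are not an interval of a class median. They were wide, -0.54 to -0.09 for mitosis and -0.32 to 0.09 for replication, so a small shift in scaling could hardly cross them. The replication median ran from -0.12 to -0.04 and the mitosis median from -0.38 to -0.31 on the log2 scale, and their difference from 0.19 (at least 100 counts) to 0.31 (without spelling matches, CDCA4, CDCA7 and CDCA7L). The other scalings left this difference at 0.27. They could not change it, because scaling moves every log2 ratio by the same amount. Scaling by total counts moved the median of all genes by -0.05 and took ORC2, CDCA7L and MCM3AP (0.988) below 1. A fold of 1.5 gave 4 members higher and 12 lower, of which 3 higher were replication genes and 1 higher and 11 lower were mitosis genes. With that fold, which 10.6% of all measured genes passed on the higher side and 9.31% on the lower side, 3 of 40 other replication genes were higher and 2 lower, 13 of 67 other mitosis genes were lower, 5 of 41 G1 regulators were higher and 1 lower, and 3 of 25 DNA damage genes were lower. A minimum of 100 counts took CENPM out, leaving 2 members at least 2-fold lower. A minimum of 1 count added CENPA, giving 4, but from only 1 and 4 counts (0.234, 0.00476 to 2.37). The minimum of 100 also left 0 other replication genes lower, 0 other mitosis genes higher and 2 lower. With a minimum of 1 count, 2 G1 regulators were higher, the added one being CDKN2B with 5 and 2 counts (2.34, 0.384 to 24.6). Shares of all genes were not computed at minimums of 100 or 1, so these counts have no share beside them. Leaving out the row labelled NCAPG2, or all CDCA genes with MCM8, MCM9 and CENPV, both chosen after seeing the data, gave mitosis medians of -0.34 and -0.37. The latter choice gave a replication median of -0.09. CENPJ, a builder of centrioles at a ratio of 0.635, stayed in the mitosis class under every alternative. CDCA4, CDCA7, CDCA7L and CENPV, which were left out, lay above the mitosis median. At this depth a member with under 50 counts, such as CDC6, CENPM, CENPP or GINS1, has an interval that spans more than 2-fold.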

Other observations

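The row labelled NCAPG2, a condensin II subunit, held 6196 and 6552 counts (H2S first) (ratio 0.887, 0.856 to 0.918), more than any other member. The RefSeq gene table gives the symbol NCAPG2 to another identifier of the deposited table, which had 353 and 449 counts (0.737, 0.640 to 0.850). Which of these rows counts the condensin gene was not tested. The same RefSeq table gives the symbol POLA2, the regulatory subunit of polymerase alpha, to a row that had 125 and 77 counts (1.52, 1.14 to 2.05), beside POLA1 at 0.827. INCENP, the scaffold of the chromosomal passenger complex, had 14863 and 16541 counts (0.843), while BIRC5 of the same complex had 79 and 95 (0.780).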
